A study of Mus musculus with 28 samples.

Results

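The tissue inhibitors of metalloproteinases Timp1 to Timp4 and 6 matrix metalloproteinases of brain, the secreted Mmp2 and the membrane-anchored Mmp14, Mmp15, Mmp16, Mmp17 and Mmp24, were followed in the hippocampus of aged mice given human plasma. The 10 genes were found by their symbols among 22256 distinct gene symbols of the deposited table, and each had 1 row there. Hippocampi came from NSG mice, an immunodeficient strain that lacks mature T, B and natural killer cells, of a mean age of 14 months. Each group had received 6 intravenous injections of 1 agent, which was human cord plasma, human young plasma, human old plasma or PBS, a saline buffer, and each group was measured on 7 arrays, 28 in all. The labels do not say whether each array held a different mouse, so the p-values measure the spread between these arrays.

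Matrix metalloproteinases are zinc enzymes that are made as inactive precursors and cut proteins of the extracellular matrix and the cell surface. Each TIMP protein binds the active site of an active metalloproteinase and blocks it; TIMP2 also takes part in activation, because pro-MMP2 is activated at the cell surface in a complex of TIMP2 with MMP14. In brain these proteins act on basement membranes of vessels, on perineuronal matrix and on synaptic adhesion proteins, and human TIMP2 has been studied as a blood-borne protein of cord plasma that acts on the aged hippocampus. The arrays measured mouse mRNA in the tissue and not the injected human proteins.

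Values are log2 intensities after RMA, the authors' background correction, normalization and summary of the probes of a gene, so a difference of 1 is a doubling and levels of different genes, read by different probes, are not set against each other. The median of an array lay between 4.96 and 5.09, and the correlation of any 2 arrays lay between 0.976 and 0.995. Hippocampal neuron markers were present in every group, with list means of 7.54 to 7.73 for dentate granule markers and 8.40 to 8.45 for CA pyramidal markers. Markers of choroid plexus and ependyma, led by Ttr, had a list mean of 6.90 to 7.98 on 13 arrays and of 5.45 to 6.01 on the other 15, with 3 arrays of the higher set in each plasma group and 4 in the PBS group. Single arrays of 2 groups stood apart. Young plasma replicate 7 had the lowest microglia, endothelial and pericyte list means of its group (7.07, 6.81 and 6.87), and PBS replicate 6 had a thalamus list mean of 7.86, against 6.62 to 7.003 on the other 27 arrays.

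Promoter sequences are shown for Mmp24, which had the smallest p-value of the 10 genes, and for Timp3, which had the strongest relation to a marker list. They are the 250 bases before and 50 bases from the annotated start, from RefSeq's mouse assembly GRCm38.p6, 5′ to 3′ on the gene's strand, which is the plus strand for both. Capitals mark matches to the GC box GGGCGG, or CCGCCC on the other strand, which Sp1-type factors can bind. The Mmp24 promoter lies at chr2:155775092-155775391 and the Timp3 promoter at chr10:86300162-86300461.
Mmp24: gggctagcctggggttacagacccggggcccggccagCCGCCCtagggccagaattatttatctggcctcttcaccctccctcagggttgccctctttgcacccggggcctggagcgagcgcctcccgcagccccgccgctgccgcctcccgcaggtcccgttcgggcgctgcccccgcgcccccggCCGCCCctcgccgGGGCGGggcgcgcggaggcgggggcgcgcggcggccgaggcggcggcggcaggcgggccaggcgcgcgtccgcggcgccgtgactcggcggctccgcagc
Timp3: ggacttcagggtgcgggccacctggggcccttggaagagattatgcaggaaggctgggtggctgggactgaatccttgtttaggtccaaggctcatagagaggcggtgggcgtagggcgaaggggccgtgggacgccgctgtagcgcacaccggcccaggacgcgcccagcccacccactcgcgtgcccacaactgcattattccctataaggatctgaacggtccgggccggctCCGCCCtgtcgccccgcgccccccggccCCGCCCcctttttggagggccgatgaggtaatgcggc
Of the 10 genes, 7 were found in the promoter table; Mmp2, Mmp16 and Mmp17 were not. The Mmp24 window had 3 GC boxes, 44 CpG dinucleotides and 80.0% G and C, and the Timp3 window had 2 GC boxes, 24 CpG dinucleotides and 67.0% G and C. The Timp2 window was also rich in CpG, with 25 of them and 1 GC box, while the Timp4 window had 2 CpG dinucleotides and no GC box. Over all promoters of the table the median was 7.0 CpG dinucleotides and 52.7% G and C, and 35.7% held a GC box. Neither TGANTCA, the AP-1 site, nor TATAAA, the TATA box, matched any of the 7 windows on either strand; 7.81% and 13.6% of all promoters held them.

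Of the 10 genes, 9 were above the level at which a gene was tested, a mean of 4.68 over the 28 arrays, on each of the 28 arrays. Timp1, the inducible inhibitor that is raised in injured and inflamed brain, was the exception. It was below that level on all 28 arrays, with means of 4.06 ± 0.14 after cord plasma, 4.18 ± 0.19 after young plasma, 4.02 ± 0.19 after old plasma and 4.06 ± 0.15 after PBS (SD, n = 7 each). It was not tested, and a level this low leaves a change in Timp1 hard to see on this array. The other genes were compared between all pairs of treatments with limma, with p-values adjusted by Benjamini-Hochberg over the 15781 genes tested.

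No member passed an adjusted p of 0.05 in any of the 7 comparisons or in the F-test over the 4 groups, in which 0 of 9 tested members were called. The background was as low: adjusted calls made up 0% of all genes for cord plasma against PBS, 0% for young plasma against PBS, 0% for old plasma against PBS, 0.019% for any plasma against PBS, 0% for cord against old plasma, 0.00634% for young against old plasma, 0% for cord against young plasma and 0.00634% for the F-test. At an unadjusted limma p under 0.05, 1 of 9 members was called for cord plasma against PBS, where 8.74% of all genes were, and 1 of 9 for young plasma against PBS, where 11.2% were. The count was 1 of 9 for old plasma against PBS with a background of 10.8%, and 1 of 9 for any plasma against PBS with a background of 12.4%. Between plasmas it was 0 of 9 for cord against old (4.2% of all genes), 1 of 9 for young against old (6.53%) and 1 of 9 for cord against young (7.22%), and the F-test called 2 of 9 (9.83%). These counts are near what the background gives. The 2 genes behind all of them were Mmp24 and Mmp16. From the authors' deposited table, no member passed in a comparison with PBS or over the 4 groups either. Its unadjusted p-values were adjusted here by Benjamini-Hochberg over all 23410 rows with a symbol, Timp1 included.

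**Figure D1:**
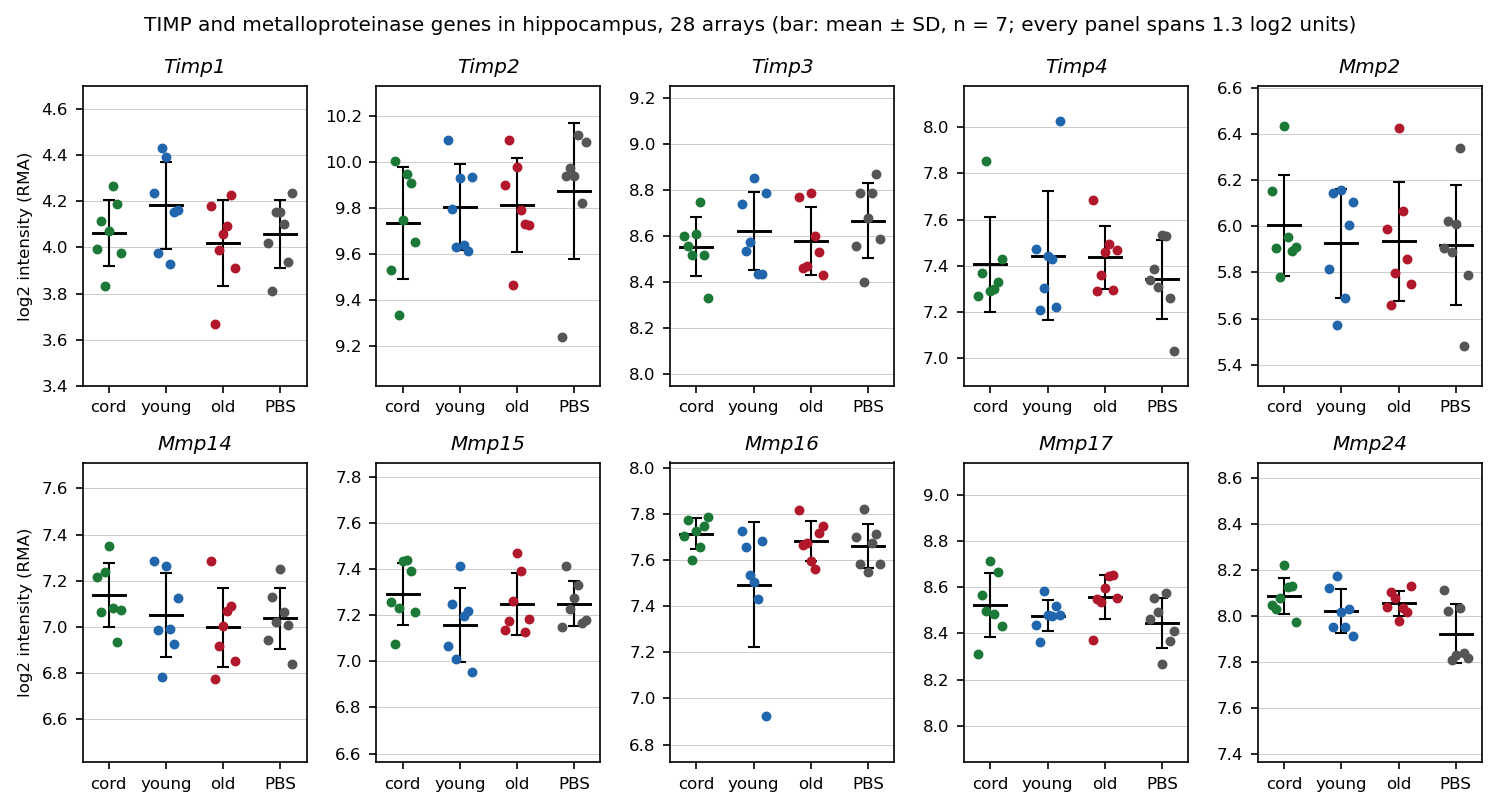
Log2 intensity of the 10 genes on each array (vertical axis, log2; every panel spans the same number of log2 units), by treatment from left to right, with each group's mean and SD as bars (n = 7). The groups overlap in every panel; the 4 lowest PBS arrays of Mmp24 (7.81 to 7.84) and the single low array of Mmp16 after young plasma (6.92) are visible.

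Mmp24, also called MT5-MMP, is a membrane-type metalloproteinase made mainly by neurons that cuts N-cadherin and the amyloid precursor protein. Its lowest, median and highest values were 7.97, 8.08 and 8.22 after cord plasma. They were 7.91, 8.02 and 8.17 after young plasma and 7.98, 8.04 and 8.13 after old plasma. After PBS they were 7.81, 7.84 and 8.11. The PBS arrays fell into 2 sets: replicates 3, 4, 6 and 7 lay at 7.81 to 7.84, below all 21 plasma arrays, while replicates 1, 2 and 5 lay at 8.02 to 8.11, inside the range of the plasma arrays. The difference from PBS was 0.16 (SE 0.05, 95% interval 0.06 to 0.27, unadjusted p = 0.00359, limma adjusted p = 0.347) for cord plasma, an intensity 11.9% higher. For old plasma it was 0.13 (SE 0.05, unadjusted p = 0.0164, limma adjusted p = 0.346), and for young plasma 0.10 (SE 0.05, unadjusted p = 0.0636, limma adjusted p = 0.474). All 21 plasma arrays together gave 0.13 (SE 0.04, unadjusted p = 0.00407, limma adjusted p = 0.198). The 3 comparisons share the same 7 PBS arrays, and the plasmas differed from one another by at most 0.06 (cord minus young plasma, SE 0.05, 95% interval -0.04 to 0.17). In the authors' deposited table the p-values of Mmp24 were 0.0141 for cord, 0.125 for young and 0.0272 for old plasma. In bulk tissue, fewer cells of a type and less RNA per cell cannot be told apart.

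Markers of neighbouring cortex, led by Mef2c, had fitted differences mostly above 0 in the same comparisons. Their list mean was 7.48 to 8.14 after cord plasma, 7.74 to 8.29 after young plasma and 7.54 to 8.21 after old plasma, against 7.59 to 7.95 after PBS. Of the 14 cortex markers, 12 were above 0 with cord plasma and 14 with young and with old plasma. Of all genes tested, 53.3%, 49.2% and 52.5% were above 0 with cord, young and old plasma. At an unadjusted limma p under 0.05, 2, 8 and 4 of the 14 were higher with cord, young and old plasma and 0 were lower. The shares of all genes called were 8.74%, 11.2% and 10.8%. No cortex marker had an adjusted p under 0.05. The cortex medians were 0.08, 0.17 and 0.13 with cord, young and old plasma. Other lists went the other way. Among 16 tested choroid plexus and ependyma markers, 14, 15 and 14 were below 0, with medians of -0.26, -0.27 and -0.17. Among 13 thalamus markers, 11, 9 and 10 were below 0, with medians of -0.15, -0.18 and -0.15. No marker of these 2 lists passed adjustment either. With the cortex list mean as a covariate, the Mmp24 differences were 0.17 for cord, 0.11 for young and 0.14 for old plasma. They were also above 0 within the 15 arrays low in choroid plexus markers (0.13, 0.15 and 0.16 for cord, young and old plasma) and within the 13 arrays high in them (0.20, 0.03 and 0.09), though none passed adjustment there. Without young plasma replicate 7 and PBS replicate 6 they were 0.15, 0.10 and 0.12. The choroid plexus sets hold 3 or 4 arrays of each group and were formed after the marker values were seen. The part of tissue makeup in the Mmp24 differences was not tested.

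Mmp16, or MT3-MMP, is a membrane-type metalloproteinase found in brain that activates pro-MMP2 in cultured cells. Its lowest, median and highest values were 7.60, 7.73 and 7.79 after cord plasma and 6.92, 7.54 and 7.72 after young plasma. They were 7.56, 7.67 and 7.82 after old plasma and 7.55, 7.67 and 7.82 after PBS. Young plasma replicate 7, at 6.92, was the lowest of the 28 arrays, and the next lowest of its group was at 7.43. Young plasma was lower than PBS by a fitted difference of -0.17 (SE 0.08, 95% interval -0.33 to -0.0031, unadjusted p = 0.0461, limma adjusted p = 0.433) and lower than old plasma by -0.19 (SE 0.08, unadjusted p = 0.0249, limma adjusted p = 0.702). Cord plasma was above young plasma by 0.22 (SE 0.08, unadjusted p = 0.00990, limma adjusted p = 0.672). One array carried much of this. Without young plasma replicate 7 the differences were -0.07 from PBS (unadjusted p = 0.185, limma adjusted p = 0.621), -0.09 from old plasma (unadjusted p = 0.0850, limma adjusted p = 0.891) and 0.13 for cord against young plasma (unadjusted p = 0.0241, limma adjusted p = 0.768). Of the 6 young plasma arrays other than replicate 7, 3 lay below all 7 PBS arrays. For cord and old plasma the fitted differences from PBS were 0.05 and 0.02.

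The other membrane-type enzymes were Mmp14, which activates pro-MMP2 together with TIMP2, Mmp15, its close relative, and Mmp17, which is held to the membrane by a GPI anchor. For Mmp14 the lowest, median and highest values were 6.94, 7.08 and 7.35 after cord plasma, 6.78, 6.99 and 7.29 after young plasma, 6.77, 7.005 and 7.29 after old plasma, and 6.84, 7.02 and 7.25 after PBS. The groups overlapped throughout, and its largest difference was 0.14 for cord minus old plasma (SE 0.08, 95% interval -0.03 to 0.31, unadjusted p = 0.0967). Mmp15 lay between 6.95 and 7.47 over the 28 arrays, with means of 7.29 ± 0.14 after cord, 7.16 ± 0.16 after young and 7.25 ± 0.13 after old plasma, against 7.25 ± 0.10 after PBS (SD, n = 7 each). Its largest difference was 0.13 for cord minus young plasma (SE 0.07, 95% interval -0.01 to 0.28, unadjusted p = 0.0655). Mmp17 lay between 8.27 and 8.71, with means of 8.52 ± 0.14 after cord, 8.48 ± 0.07 after young and 8.56 ± 0.10 after old plasma, against 8.45 ± 0.11 after PBS (SD, n = 7 each). Old minus PBS was its largest difference, 0.11 (SE 0.06, 95% interval -0.01 to 0.23, unadjusted p = 0.0611). For cord plasma all 5 of the membrane-type genes had fitted differences above 0, from 0.04 to 0.16 with a median of 0.08 (Mmp16 was at -0.02 within the arrays low in choroid plexus markers), where 53.3% of all genes tested were above 0 with a median of 0.01. For young and for old plasma 3 of 5 were above 0, with medians of 0.01 and 0.02.

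Timp2 is expressed widely by neurons and glia. Its lowest, median and highest values were 9.34, 9.75 and 10.004 after cord plasma and 9.61, 9.80 and 10.09 after young plasma. They were 9.47, 9.79 and 10.09 after old plasma and 9.24, 9.94 and 10.12 after PBS. PBS replicate 1, at 9.24, was the lowest of the 28 arrays, while the other PBS arrays were at 9.82 or above. The differences from PBS were -0.14 for cord plasma (SE 0.12, 95% interval -0.38 to 0.10, unadjusted p = 0.247), -0.07 for young plasma (95% interval -0.31 to 0.17) and -0.06 for old plasma (95% interval -0.30 to 0.18). On the linear scale the interval for cord plasma runs from -23.3% to 7.39%. Without PBS replicate 1 the cord difference was -0.25 (unadjusted p = 0.0237, limma adjusted p = 0.387), and without cord plasma replicate 3 it was -0.07. Within the arrays low in choroid plexus markers the Timp2 differences were above 0, at 0.05 for cord, 0.07 for young and 0.08 for old plasma, and within the arrays high in them they were -0.28 (unadjusted p = 0.0104, limma adjusted p = 0.546), -0.13 and -0.13. PBS replicate 1 was in the low set, and the high set held 3 cord plasma and 4 PBS arrays. These sets were formed after the marker values were seen. Neither the sign nor the size of the Timp2 differences was the same over the arrays.

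Timp3 binds to the matrix and also inhibits ADAM and ADAMTS proteases. Its lowest, median and highest values were 8.33, 8.56 and 8.75 after cord plasma, 8.44, 8.57 and 8.85 after young plasma, 8.43, 8.53 and 8.79 after old plasma, and 8.40, 8.68 and 8.87 after PBS. The groups overlapped, with differences from PBS of -0.11 (SE 0.08, 95% interval -0.27 to 0.05), -0.04 (95% interval -0.21 to 0.12) and -0.09 (95% interval -0.25 to 0.07) for cord, young and old plasma. Timp4 is the inhibitor best known from heart and brain. It lay between 7.27 and 7.85 after cord plasma, 7.21 and 8.03 after young plasma, 7.29 and 7.68 after old plasma, and 7.03 and 7.53 after PBS. Cord plasma replicate 3 (7.85) and young plasma replicate 7 (8.03) stood above the rest of their groups, whose next values were 7.43 and 7.47. Its differences from PBS were 0.07, 0.10 and 0.10 for cord, young and old plasma (SE 0.10 each; the largest upper bound of the 95% intervals was 0.31). Without cord plasma replicate 3 the cord difference was -0.01, and without young plasma replicate 7 the young difference was 0.0051. Within the arrays high in choroid plexus markers Timp4 had -0.08 with cord plasma, and Timp3 had 0.01 with young and 0.0089 with old plasma. No TIMP gene passed the threshold, and each of the 3 tested had at least 1 difference from PBS whose sign turned with the arrays used.

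**Figure D2:**
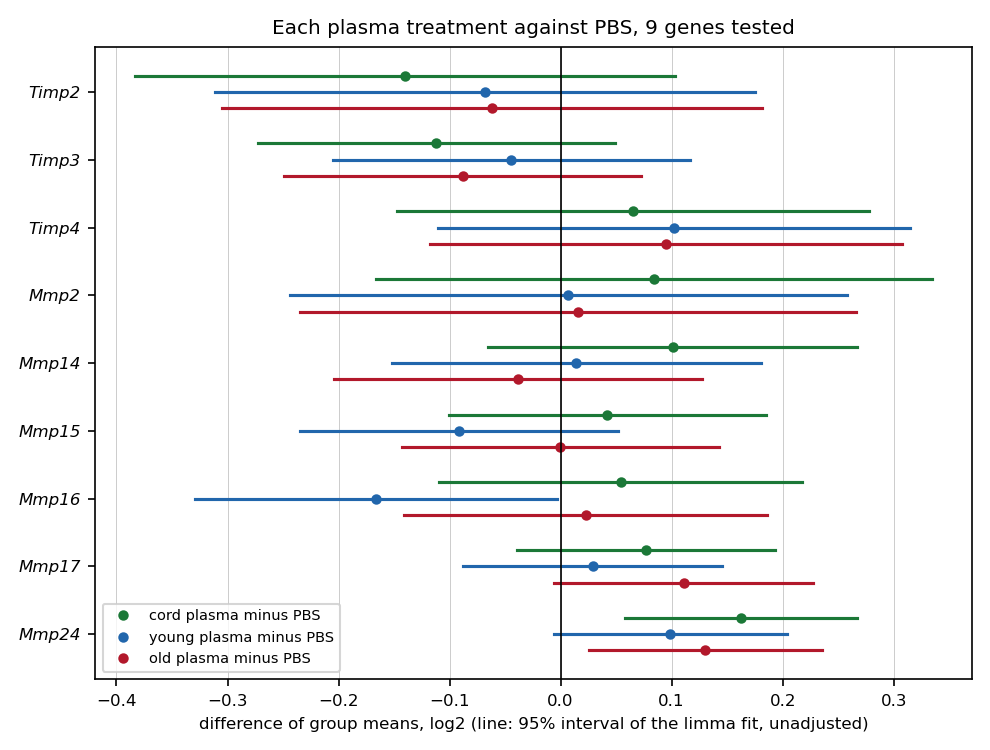
Differences of group means from PBS for the 9 tested genes (horizontal axis, log2; points are cord, young and old plasma minus PBS, lines the 95% intervals of the limma fit, not adjusted). The intervals of Mmp24 for cord and old plasma lie above 0 and that of Mmp16 for young plasma lies just below it (upper bound -0.0031); all others include 0.

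Mmp2, gelatinase A, cuts collagen IV of basement membranes and is the enzyme that Timp2 and Mmp14 activate together. Its lowest, median and highest values were 5.78, 5.91 and 6.43 after cord plasma, 5.57, 6.00 and 6.16 after young plasma, 5.66, 5.86 and 6.43 after old plasma, and 5.48, 5.91 and 6.34 after PBS. The group means differed from PBS by 0.08 (SE 0.12, 95% interval -0.17 to 0.33) for cord plasma, by 0.01 for young and by 0.02 for old plasma. Without PBS replicate 6 the cord difference was 0.01. Its spread within groups, an SD of 0.24, was larger than that of 95.1% of the genes tested, whose median SD was 0.13. Timp2 (94.4%) and Timp4 (89.9%) were also among the more variable genes, while Mmp17 (33.7%) and Mmp24 (23.4%) were not. Mmp2 was mostly higher on the arrays high in choroid plexus markers. On the 13 arrays high in them Mmp2 lay between 5.79 and 6.43 with a median of 6.11, and on the 15 arrays low in them between 5.48 and 6.00 with a median of 5.81, so that 10 of the 13 lay above all 15. Medians of the high and the low set were 8.75 and 8.52 for Timp3, 7.33 and 7.18 for Mmp15, and 9.93 and 9.73 for Timp2, while Mmp24 had 8.02 and 8.08 and Mmp16 7.60 and 7.71. The sets overlapped for every member; 51 of the 15781 genes (0.323%) were higher in the high set without overlap. These sets were formed after the marker values were seen, and their medians are given without a test. How many of all genes had as many arrays apart as Mmp2 was not counted.

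**Figure D3:**
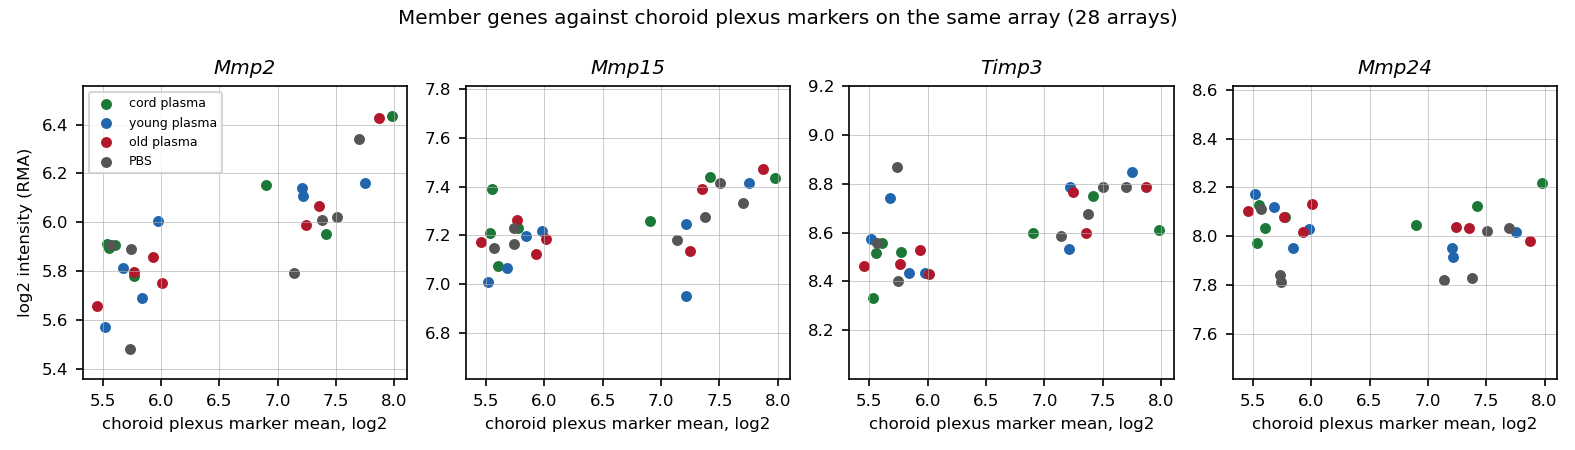
Log2 intensity of Mmp2, Mmp15, Timp3 and Mmp24 (vertical axis) against the mean log2 intensity of choroid plexus and ependyma markers on the same array (horizontal axis), 28 arrays coloured by treatment. The arrays form 2 separate sets at 5.45 to 6.01 and 6.90 to 7.98, each holding arrays of all 4 groups. Mmp2 is mostly higher in the second, with overlap.

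Within the 13 arrays high in choroid plexus markers, the list mean and Mmp2 had a Pearson r of 0.69 and a Spearman rho of 0.54 (permutation p = 0.00964 and 0.0581, adjusted p = 0.180 and 0.315), and r was 0.37 without the 2 arrays farthest from the median of the list. Mmp15 had r = 0.65 and rho = 0.80 there (permutation p = 0.0141 and 0.00144, adjusted p = 0.20003 and 0.0672), and r was 0.55 without those 2 arrays. Mmp17 had r = 0.72 and rho = 0.71 (permutation p = 0.00543 and 0.00798, adjusted p = 0.130 and 0.168), and r was 0.55 without those 2 arrays. These were the 3 of 20 relations within the sets with an unadjusted p under 0.05, and all were in the high set. Between the sets Mmp17 was not higher with the markers, with medians of 8.48 in the high and 8.52 in the low set. No relation of the list with a member within the low or the high set passed adjustment. Arrays were permuted within a set without regard to treatment. With the list mean as a covariate, the fitted difference of Mmp2 for cord plasma had an SE of 0.08 in place of 0.12.

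Members and marker lists were also correlated across the 28 arrays after subtracting group means, with 100000 permutations each. Of these 100 relations, 17 had an unadjusted p under 0.05 and 1 an adjusted p under 0.05. The adjustment was over 168 relations, which also hold 45 pairs of members, 3 pairs of a TIMP gene and a synapsin gene, and the 20 relations within the choroid plexus sets. That one was Timp3 with meningeal fibroblast markers, cells of the brain's coverings; the list is led by Pdgfra, Col1a1 and Dcn, of which Pdgfra also marks oligodendrocyte precursors. Pearson r was 0.64 and Spearman rho 0.65 (permutation p = 0.000220 and 0.000380, adjusted p = 0.0370 and 0.0638), and r was 0.69 without the 2 arrays farthest from the median of the list. Within groups r was 0.76 for cord plasma, 0.74 for young plasma, 0.39 for old plasma and 0.74 for PBS. Timp3 was also mostly lower in the low choroid plexus set, with 10 of the 15 low arrays below all 13 high ones. The share of all genes with as many arrays apart was not counted. The part of that split in the relation of Timp3 with the meningeal list was not tested. The call for this relation is a narrow one. Leaving out 1 array at a time kept r between 0.58 and 0.69 but took the adjusted p above 0.05 in 19 of 28 cases. Timp2 with the same list had r = 0.45 and rho = 0.50 (permutation p = 0.0194 and 0.0121, adjusted p = 0.203 and 0.170), and Timp3 with thalamus markers had r = 0.46 and rho = 0.46 (permutation p = 0.0146 and 0.0135, adjusted p = 0.20003 and 0.173). For these 2 relations r was 0.58 and 0.37 without the 2 arrays farthest from the list's median.

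Some members had negative correlations with cortex markers, and Mmp16 had a positive one. Mmp14 had r = -0.58 and rho = -0.61 (permutation p = 0.00301 and 0.00172, adjusted p = 0.130 and 0.0672; r = -0.51 without the 2 farthest arrays). Timp4 had r = -0.53 and rho = -0.59 (permutation p = 0.00466 and 0.00200, adjusted p = 0.130 and 0.0672; r = -0.41 without the 2 farthest arrays). Mmp15 had r = 0.56 and rho = 0.53 with oligodendrocyte markers (permutation p = 0.00859 and 0.0103, adjusted p = 0.180 and 0.170; r = 0.46 without the 2 farthest arrays). Mmp24 had r = 0.44 and rho = 0.44 with dentate granule markers (permutation p = 0.0281 and 0.0289, adjusted p = 0.225 for both; r = 0.48 without the 2 farthest arrays). None of these passed adjustment, though the sign was the same in all 4 groups for the first 3 of them. Mmp2 and Mmp16 also had an unadjusted permutation p under 0.05 with cortex markers. With 1 array left out, r was -0.59 to -0.40 for Mmp2 and 0.27 to 0.43 for Mmp16. Also under 0.05 and positive were Timp4 with CA pyramidal, Timp2 with astrocyte and Mmp17 with dentate granule markers. So were Mmp14 with endothelial and pericyte markers, while Mmp17 with both lists and Timp2 with oligodendrocyte markers were under 0.05 and negative.

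Among the 45 pairs of members, 7 had an unadjusted p under 0.05 and 0 an adjusted one, with a smallest adjusted p of 0.130. Mmp2 and Mmp15 had r = 0.57 and rho = 0.51 (permutation p = 0.00265 and 0.0115, adjusted p = 0.130 and 0.170), and r was 0.43 without the 2 farthest arrays. Both had higher medians on the arrays high in choroid plexus markers, as given above, with overlap between the sets. The part of those markers in this pair was not tested. Timp3 and Mmp14 had r = 0.55 and rho = 0.60 (permutation p = 0.00523 and 0.00199, adjusted p = 0.130 and 0.0672; r = 0.54 without the 2 farthest arrays). Mmp2 and its activator Mmp14 had r = 0.48 and rho = 0.49 (permutation p = 0.0155 and 0.0144, adjusted p = 0.20003 and 0.173; r = 0.47 without the 2 farthest arrays). Mmp17 and Mmp24 had r = 0.47 and rho = 0.42 (permutation p = 0.0178 and 0.0415, adjusted p = 0.20003 and 0.279; r = 0.33 without the 2 farthest arrays). Timp4 and Mmp16 had r = -0.58 but rho = -0.32 (permutation p = 0.0314 and 0.127, adjusted p = 0.240 and 0.450), and r was 0.02 without the 2 farthest arrays, so that relation rests on those arrays. Timp2 with Mmp2 had r = 0.22 and with Mmp14 r = 0.12, neither with a p under 0.05.

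**Figure D4:**
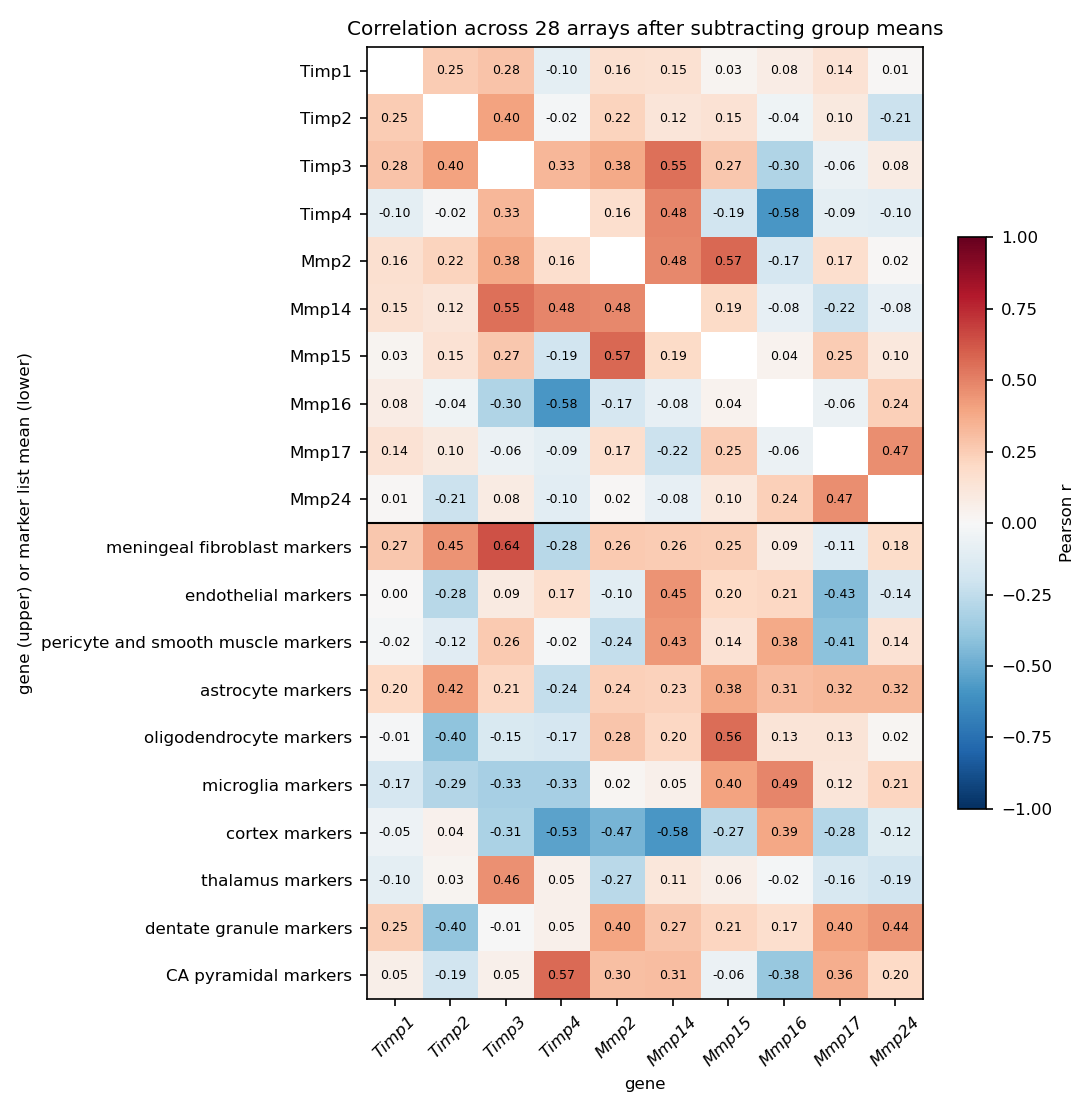
Pearson correlation (colour and number) of each gene on the horizontal axis with the other genes, above the line, and with marker list means, below it, across 28 arrays after subtracting group means. Choroid plexus markers are left out because their list mean falls into 2 sets; the one relation past adjustment is Timp3 with meningeal fibroblast markers (0.64).

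The genes most like each member over the 28 arrays, with group means subtracted, are given as a description. For Timp2 they were Tcerg1l (r = 0.90), Nr2f2 (0.90) and Tmem255a (0.89), and 24 of 15780 genes had an r over 0.8. For Mmp2 they were Frem1 (0.89), Ap1s2 (0.88) and Ccdc135 (0.86), with 41 genes over 0.8. For Mmp16 they were Dopey1 (0.88), Ankrd26 (0.87) and Vprbp (0.87), with 34 genes over 0.8. Without young plasma replicate 7, on which these genes were also low, r was 0.62, 0.56 and 0.56, and 0 genes were over 0.8 for Mmp16. Timp3 was most like Gpx3 (0.80), Slc13a4 (0.80) and Bmp6 (0.76), of which Slc13a4 is one of the meningeal markers used above. Timp4 was most like Lrrc58 (0.84), 1500012F01Rik (0.82) and Heph (0.82), at 0.72, 0.75 and 0.76 without the same array. Mmp15 was most like Slc31a2 (0.82), Dock6 (0.82) and Efemp2 (0.80). Mmp24 was most like Paqr9 (0.76), Lman2 (0.76) and Lrp1 (0.72), the last a scavenger receptor that takes up TIMP and metalloproteinase complexes. Among the genes most like Mmp17 were Tomm34 (0.74) and Lrrc28 (0.74). Mmp14 was most like Srpr (0.79), Ppp6r3 (0.78) and Itih5 (0.78), and Timp1 most like Lrpprc (0.68), Wdr66 (0.67) and Cdk11b (0.66). No gene exceeded 0.8 for Timp1, Mmp14, Mmp17 or Mmp24, and no member was among the 3 most like genes of another.

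RefSeq places Timp1, Timp3 and Timp4 within the spans of the synapsin genes Syn1, Syn3 and Syn2, which encode proteins of synaptic vesicles. These genes were looked at after their values were seen. Syn3 averaged 7.93 ± 0.16 after cord, 8.01 ± 0.14 after young and 8.02 ± 0.19 after old plasma, against 7.75 ± 0.12 after PBS (SD, n = 7 each). Its differences from PBS were 0.19 (SE 0.08), 0.27 (SE 0.08) and 0.28 (SE 0.08), and all plasma arrays together gave 0.24 (unadjusted p = 0.000680, limma adjusted p = 0.140), with no adjusted p under 0.05. The differences of Timp3 in the same comparisons had the other sign, and across arrays Syn3 and Timp3 had r = -0.33 and rho = -0.40 (permutation p = 0.0996 and 0.0494, adjusted p = 0.478 and 0.294; r = -0.26 without the 2 farthest arrays). Syn2 with Timp4 had r = 0.14 and Syn1 with Timp1 had r = 0.05, neither past a p of 0.05.

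Among other genes of the pathway, no gene passed adjustment in any comparison. Of 17 other matrix metalloproteinases on the array, 8 were above the testing level, while Mmp1a, Mmp1b, Mmp3, Mmp7, Mmp8, Mmp12, Mmp13, Mmp20 and Mmp27 were not. With cord plasma 2 of the 8 had fitted differences above 0, with young plasma 3 and with old plasma 2, with medians of -0.08, -0.03 and -0.07. Mmp23 had -0.24 with old plasma (SE 0.07, unadjusted p = 0.00322, limma adjusted p = 0.238) and Mmp25, a GPI-anchored enzyme of leukocytes, had -0.16 with cord plasma (SE 0.06, unadjusted p = 0.00885, limma adjusted p = 0.425). Mmp28 had -0.12 with cord plasma and 0.12 with young plasma (unadjusted p = 0.0960 and 0.0926). For cord against young plasma it had -0.23 (unadjusted p = 0.00172, limma adjusted p = 0.668). Mmp10 had -0.18 with old plasma (unadjusted p = 0.0397).

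Of 27 ADAM and ADAMTS proteases, which Timp3 inhibits in part, 23 were tested, and 9 with cord, 10 with young and 9 with old plasma were above 0, with medians of -0.03, -0.02 and -0.02. Adamts9 had -0.23 with young plasma (unadjusted p = 0.0226), and 0.31 for cord against young plasma (unadjusted p = 0.00302, limma adjusted p = 0.668). Adamts7 had -0.25 with cord plasma (unadjusted p = 0.0245), while Adamts8 and Adam19 had no comparison with PBS under an unadjusted p of 0.05. Of 32 activators, receptors and other inhibitors, 30 were tested, and 16, 14 and 15 were above 0 with cord, young and old plasma, with medians of 0.01, -0.0044 and -0.00016. Itgb3, an integrin subunit, had 0.16 with young plasma (unadjusted p = 0.00468) and 0.12 with old plasma (unadjusted p = 0.0252). Thbs2, the matrix protein that clears MMP2 through Lrp1, had 0.24 with cord and 0.25 with young plasma (unadjusted p = 0.0168 and 0.0130), and Plau, the urokinase protease, had 0.19 with young plasma (unadjusted p = 0.0280). Cav1, the caveolar coat protein, had 0.16 with cord plasma (unadjusted p = 0.130).

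All 36 matrix and surface substrates were tested, and 22 with cord, 13 with young and 14 with old plasma were above 0, with medians of 0.02, -0.03 and -0.01 beside medians over all genes tested of 0.01, -0.0018 and 0.0050. Between plasmas, 30 of 36 were above 0 for cord against young plasma with a median of 0.07, where 53.5% of all genes were above 0 with a median of 0.01. In the same comparison 13 of 14 cortex markers were below 0 with a median of -0.27, and 11 of 11 tested dentate granule markers were above 0 with a median of 0.20, none past adjustment. The part of these regions in the substrate values was not tested. Agrn, the proteoglycan agrin, had 0.14 with cord plasma (unadjusted p = 0.0109), Hapln4, a link protein of perineuronal matrix, had 0.18 with old plasma (unadjusted p = 0.00829), and Cspg4, the NG2 proteoglycan, had -0.13 with old plasma (unadjusted p = 0.00892). Lamb1, a laminin chain, had -0.20 with young plasma (unadjusted p = 0.0420). Set beside these lists, the 9 tested TIMP and metalloproteinase genes had 7, 5 and 5 fitted differences above 0 with cord, young and old plasma, with medians of 0.07, 0.01 and 0.02.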

How the data were processed

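RNA of mouse hippocampus was made into biotin-labelled targets and hybridised to Affymetrix whole-transcript arrays, per the labels' protocols. The authors made log2 intensities with RMA, per the submitters' processing notes; no label or header used here gives RMA's version, the array design or the genome build. The deposited table also holds the authors' log2 means and unadjusted p-values (each plasma with PBS, and an overall test), as its headers name them. These means matched the 28 arrays within 8.57e-09.

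Of 41345 rows, 23410 had a symbol, with 22256 distinct symbols. The row with the highest mean stood for a symbol, and 15781 genes with a mean at or above the 30th percentile of named rows (4.68) were tested. All 28 arrays were fitted together with 1 mean per group in limma 3.58.1 (lmFit and eBayes, R 4.3.3), with a moderated F-test and Benjamini-Hochberg adjustment over all genes tested. The fit was tested on simulated data. Correlations used values minus group means and two-sided tests with 100000 permutations within groups (numpy 2.4.6), adjusted over 168 relations. Relations with choroid plexus markers were taken within 2 sets of arrays, on values as deposited. Their permutations ran over all arrays of a set and not within treatment groups. The number of arrays limits the precision.

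The members, gene lists and tests were chosen with earlier results of these data known. Named were all 10 members, from each pathway list the 4 genes with the smallest F-test p, for each member the 3 genes with the highest correlation, and at most the 4 brightest markers of a list; the untested metalloproteinases and the synapsins were named outside this rule, after their values were seen. For Mmp17, 1 of its 3 genes is not reported here. Alternatives were other filters, normalizations, variance settings, covariates, a replicate block and each array left out. The number of columns left unused was 0.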

Additional observations from a re-analysis of the deposited data

Results flagged for a closer look

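Dixon's test of the highest and lowest array, applied to each gene and each marker list in each group of 7, marked 8 of 84 groups; chance marks about 5% of them. Timp2 on PBS replicate 1 was 9.24, while the other PBS arrays were between 9.82 and 10.12. Timp4 was 7.85 on cord plasma replicate 3, above 7.27 to 7.43 on the other cord plasma arrays, and 8.03 on young plasma replicate 7, above 7.21 to 7.47 on the other young plasma arrays. Mmp16 was 6.92 on young plasma replicate 7, below 7.43 to 7.72 on the rest of its group, and the microglia marker mean was 7.07 on the same array, below 7.36 to 7.57. Mmp17 was 8.37 on old plasma replicate 1, below 8.54 to 8.65. The thalamus marker mean was 7.86 on PBS replicate 6, above 6.65 to 6.97, and 6.62 on old plasma replicate 2, below 6.77 to 6.84. The part of these arrays' tissue makeup in the member values was not tested.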

How the results depend on the processing

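Beside the settings given above, results were recomputed with other filters, other choices of row, 2 renormalizations, other variance settings, array weights, the groups alone, marker covariates and each array left out in turn. No member passed an adjusted p of 0.05 in any comparison under any of them; the smallest was 0.0828, for Mmp24 with any plasma against PBS without PBS replicate 1. Over the alternatives that left out 1 array, Mmp24 stayed above PBS, from 0.14 to 0.19 for cord, 0.07 to 0.13 for young, 0.11 to 0.16 for old and 0.11 to 0.16 for any plasma. Some differences between groups changed sign. Renewed quantile normalization gave Timp2 0.00248 for young plasma against old plasma. Centring each array on its median gave Mmp2 -0.000616 for young plasma against PBS, Mmp15 0.0369 for old plasma against PBS, Mmp15 0.00137 for any plasma against PBS, Timp3 -0.000909 and Timp4 -0.0377 for young plasma against old plasma. Array weights gave Mmp2 -0.0209 for young plasma against PBS, Mmp15 0.00108 for old plasma against PBS, Timp4 -0.0628 for young plasma against old plasma. A choroid plexus covariate gave Mmp15 0.0136 for old plasma against PBS, Mmp15 0.00273 for any plasma against PBS, Mmp2 0.00439 for young plasma against old plasma. A cortex covariate gave Timp3 0.0228 for young plasma against PBS, Mmp14 0.0505 and Mmp15 0.0342 and Mmp16 -0.0358 for old plasma against PBS, Mmp15 0.0168 for any plasma against PBS, Mmp2 0.0410 for young plasma against old plasma, Mmp2 -0.0331 and Mmp14 -0.00195 for cord plasma against young plasma. A thalamus covariate gave Mmp2 -0.0340 for young plasma against PBS, Mmp2 -0.0324 and Mmp15 0.00552 for old plasma against PBS, Mmp2 -0.00664 for any plasma against PBS. Of alternatives chosen after seeing the data, the arrays low in choroid plexus markers gave Timp2 0.0484 and Mmp16 -0.0174 for cord plasma against PBS, Timp2 0.0659 for young plasma against PBS, Timp2 0.0754 and Mmp15 0.00469 and Mmp16 -0.0443 for old plasma against PBS, Timp2 0.0632 for any plasma against PBS, Timp3 0.00733 and Timp4 0.14 and Mmp24 -0.0293 for cord plasma against old plasma, Mmp2 0.00356 for young plasma against old plasma, Timp4 0.14 and Mmp24 -0.0155 for cord plasma against young plasma. The arrays high in them gave Timp4 -0.0838 for cord plasma against PBS, Timp3 0.0143 and Mmp17 -0.0118 for young plasma against PBS, Timp3 0.00889 and Mmp14 0.0480 and Mmp15 0.0324 for old plasma against PBS, Mmp15 0.00522 for any plasma against PBS. Leaving out young plasma replicate 7 and PBS replicate 6 gave Timp4 -0.00858 and Mmp2 -0.10 and Mmp14 -0.00335 for young plasma against PBS, Mmp2 -0.0574 for old plasma against PBS, Mmp2 -0.0474 and Mmp16 0.0108 for any plasma against PBS, Timp4 -0.0901 for young plasma against old plasma, Timp4 0.0601 for cord plasma against young plasma. The cause was not tested. With 1 array left out, 19 differences changed sign, each of them at most 0.07 in size in the full data.

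For any plasma against PBS the ranges were Mmp14 -0.00737 to 0.0613, Mmp15 -0.0330 to 0.0108, Mmp16 -0.0489 to 0.00174 and Mmp2 -0.0374 to 0.11. For young plasma against PBS the ranges were Mmp14 -0.0248 to 0.0589, Mmp17 -0.000692 to 0.0506 and Mmp2 -0.0660 to 0.0769. For old plasma against PBS the ranges were Mmp15 -0.0373 to 0.0270, Mmp16 -3.33e-05 to 0.0495 and Mmp2 -0.0663 to 0.0855. For cord plasma against old plasma the ranges were Mmp17 -0.0656 to 0.00151, Mmp2 -0.00326 to 0.15, Timp3 -0.0561 to 0.0136 and Timp4 -0.10 to 0.0112. For young plasma against old plasma the ranges were Mmp2 -0.0548 to 0.0733, Timp2 -0.0640 to 0.0405 and Timp4 -0.0901 to 0.0483. For cord plasma against PBS the range was Timp4 -0.00951 to 0.10. For cord plasma against young plasma the range was Timp4 -0.11 to 0.0601.

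The number of correlations past adjustment, 1 in all, was 0 with Spearman rho and 0 to 3 with 1 array left out, and r of Timp4 and Mmp16 was 0.017 without the 2 arrays farthest from the median. With centring the number of all genes past adjustment was 104 for old plasma against PBS in place of 0 and 18 for any plasma against PBS in place of 3, and it was 30 for any plasma with every row of a gene as its own feature. With 1 array left out it reached 42 for any plasma (without PBS replicate 1) and 10 for old plasma (without PBS replicate 5). With no young plasma replicate 7, chosen after seeing the data, r of the genes most like Mmp16 and Timp4 was lower, as given above.

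Same-numbered arrays of different groups had correlations of -0.19 to 0.41 with a median of 0.02, and 12 of 42 were over 0.1. Differently numbered arrays were not set beside them, so these values cannot decide whether the replicate numbers of the titles pair the arrays. In all 4 groups replicate 4 was in the set high in choroid plexus markers, and replicates 3 and 6 were in the low set. The other replicate numbers had arrays in both sets. With the replicate block no member passed, and Mmp24 with cord plasma against PBS kept a difference of 0.16 (unadjusted p = 0.00646, limma adjusted p = 0.391). With 7 arrays a group, intervals of the fitted differences span 0.21 to 0.50 log2 units for single plasmas against PBS, which limits what a change of these genes can show.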
